A study of Oryza sativa with 7 samples.

Results

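In the stem base of young rice seedlings, 97 of the 24775 gene identifiers measured were abundant in ground tissue and nearly without reads in crown root primordia. A gene was taken when its lowest level over the 2 ground tissue libraries was at least 30 CPM (the count divided by the library's total count and multiplied by 1000000) and at least 16 times its highest level over the 5 primordium libraries. Of the 6573 genes with at least 30 CPM in both ground tissue libraries, the 97 make up 1.48%. The mirror rule, at least 30 CPM in all 5 primordium libraries and 16 times the higher ground tissue library, was met by 32 of 5663 genes (0.565%). The rule leaves out 2 further genes that meet its thresholds. The genes were selected on their measured levels in ground tissue and in primordia, so the contrast between these tissues is described below without a test.

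The libraries came from wild-type IR64 seedlings, an indica rice cultivar, 6 days old and grown on diluted MS medium, with no treatment named for any group. Laser capture microdissection, which cuts chosen cells out of a tissue section under a microscope, gave 2 libraries of crown root primordia at outgrowth, 3 of primordia at initiation and 2 of control ground tissue. The labels do not say which cells were captured beyond stage and tissue, nor whether the libraries of a group came from different plants, so a p-value here sets a difference against the spread of the libraries alone. That spread may be only technical, and with shared plants the p-values would be too low. Library totals ran from 8351775 to 25448025 reads. The mean squared difference between initiation replicates 1 and 3 was 0.402 times the variance of counting noise, against 9.53 to 52.5 times for the other pairs of replicates. The mean of initiation replicates 1 and 3 was therefore counted as 1 sample, and each group has n = 2. Fewer cells of a type and less RNA per cell cannot be told apart in these bulk samples.

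Crown roots are the roots that grasses form from the stem base after germination, and they make up most of the adult rice root system. Each primordium arises inside the stem from cells that return to division, while the ground tissue around it is the parenchyma between epidermis and vascular strands. Parenchyma near the surface of a young shoot can carry chloroplasts, in which light-harvesting proteins feed energy to photosystems II and I and a chain of electron carriers links them. Genes for these proteins are classic markers of green shoot cells and are low in roots and meristems.

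The files do not pair identifiers with gene names. Names below are assignments of MSU rice loci taken from general knowledge of the rice literature, for 430 loci in 25 lists by tissue or role, and were not checked against an MSU annotation. Of the 97 genes, 17 are among them. RefSeq's gene table (assembly ASM3414082v1), which shares no identifiers with the files, carries 9 of these 17 names on the chromosome that the locus number gives: all 6 names outside photosynthesis and 3 of the 11 photosynthesis names (CAB1R, CAB2R and PSAH). It does not list 7, and it gives 1 of them, PC, to a gene on another chromosome, so the name PC rests on the locus assignment alone. The other 80 genes are on none of the lists and are given by identifier. They may include further genes with published names, also of photosynthesis. In all, 11 of the 17 named genes belong to the photosynthesis list, the other 6 are single members of 6 other lists, and 18 lists hold none.

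In ground tissue the 97 genes together took 1.32% of the reads in replicate 1 and 1.19% in replicate 2. Their summed level was 197.3 and 135.9 CPM at outgrowth, 131.4, 145.4 and 129.7 CPM at initiation, and 13154 and 11906 CPM in control. All 5 primordium libraries thus lay far below both control libraries, and the 3 initiation libraries lay within the span of the 2 outgrowth libraries or just below it. CPM is not scaled to gene length, which the files do not give, so an order of CPM between genes is an order of reads, not of transcripts.

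**Figure D1:**
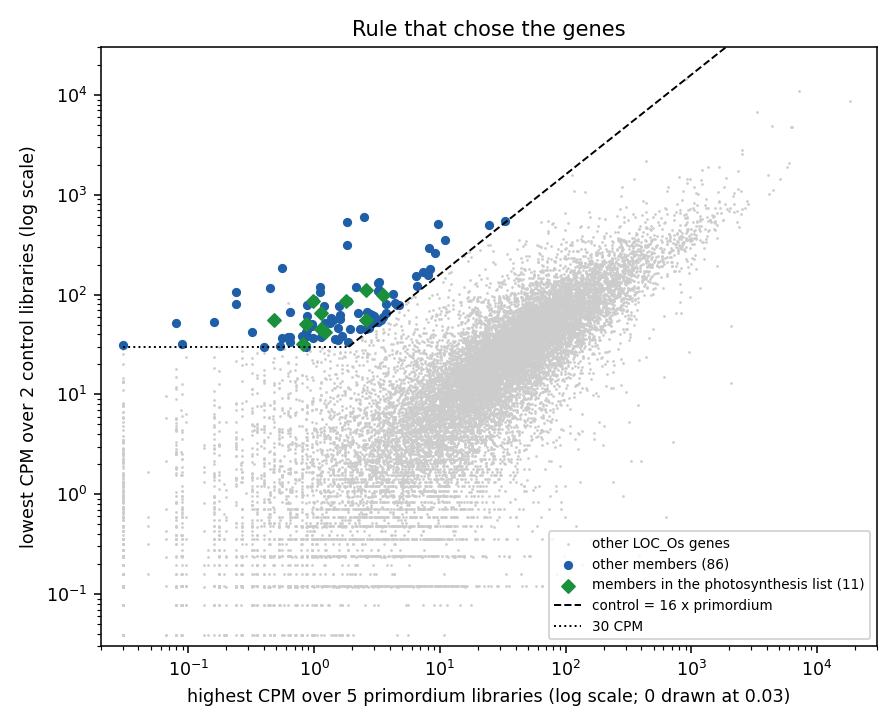
Each point is a gene, with its highest CPM over the 5 primordium libraries on the horizontal axis and its lowest CPM over the 2 control libraries on the vertical axis, both on log scales with a horizontal value of 0 drawn at 0.03. The 97 chosen genes lie above 30 CPM (dotted) and left of the line where control is 16 times primordium (dashed), and the 11 photosynthesis genes are drawn as green diamonds.

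Across the 97 genes, the mean control level ran from 30.5 to 937 CPM with a median of 79.7 CPM. It was at least 100 CPM for 36 genes and under 50 CPM for 20. The mean of both stages was at most 4.76% of the control mean, with a median of 1.02% and quartiles of 0.454% and 1.83%. It was under 0.5% for 26 genes and over 3% for 9. Residual reads were common: at outgrowth 5 and 12 of the 97 genes had no read, at initiation 29, 35 and 25 had none, and in control every gene had reads. Only LOC_Os11g43980 had no read in any of the 5 primordium libraries, against 34.0 and 31.5 CPM in control.

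**Figure D2:**
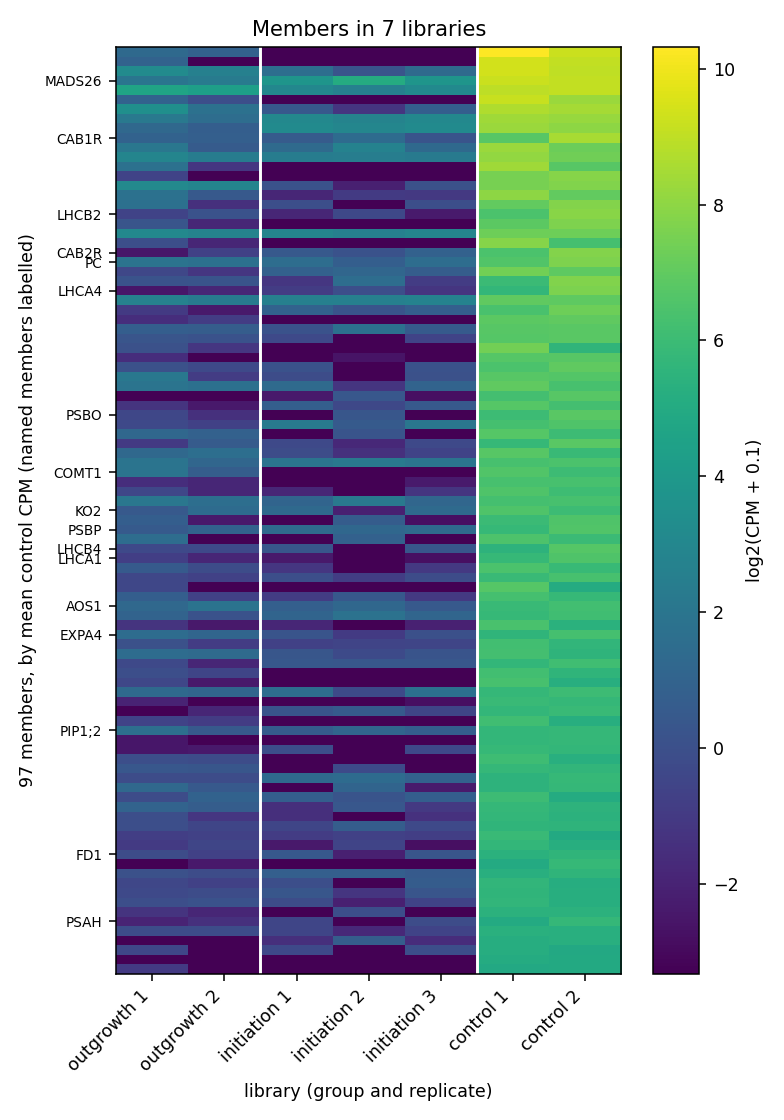
Colour gives log2(CPM + 0.1) of the 97 genes (rows, ordered by mean control level, named genes labelled) in the 2 outgrowth, 3 initiation and 2 control libraries (columns). The darkest cells are genes without a read, which number 25 to 35 in the initiation libraries and 5 and 12 in the outgrowth libraries.

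Light-harvesting proteins, which hold the chlorophyll antenna, gave 6 of the 17 named genes. CAB1R (LOC_Os09g17740), a main chlorophyll a/b-binding protein of photosystem II, had 1.84 and 1.68 CPM at outgrowth, 1.40, 2.60 and 1.05 CPM at initiation, and 110.0 and 367 CPM in control. LHCB2 (LOC_Os03g39610), another antenna protein of photosystem II, had 0.559 and 0.970 CPM at outgrowth, 0.175, 0.666 and 0.0950 CPM at initiation, and 86.9 and 241 CPM in control. CAB2R (LOC_Os01g41710), a further protein of the same antenna, had 0.0799 and 0.529 CPM at outgrowth, 1.31, 0.999 and 1.81 CPM at initiation, and 86.2 and 224 CPM in control. In all 3 genes control replicate 2 held over 2 times the level of control replicate 1, and both were far above every primordium library. LHCB4 (LOC_Os07g37240), the linker antenna protein CP29, had 0.719 and 0.706 CPM at outgrowth, 1.14, 0 and 1.14 CPM at initiation, and 44.8 and 106.4 CPM in control. LHCA4 (LOC_Os08g33820), of the photosystem I antenna, had 0.0799 and 0.176 CPM at outgrowth, 0.438, 0.866 and 0.333 CPM at initiation, and 51.4 and 198.4 CPM in control. LHCA1 (LOC_Os06g21590), its antenna partner, had 0.479 and 0.176 CPM at outgrowth, 0.0876, 0 and 0.0475 CPM at initiation, and 55.3 and 95.2 CPM in control. LHCA1 kept the smallest share of its control level among the 11 photosynthesis genes, 0.238% over both stages.

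Subunits of the photosystems and carriers between them gave the other 5 named photosynthesis genes. PSBO (LOC_Os01g31690), which stabilises the water-splitting manganese cluster of photosystem II, had 0.639 and 0.265 CPM at outgrowth, 0, 1.13 and 0 CPM at initiation, and 65.9 and 111.9 CPM in control. PSBP (LOC_Os07g04840), a second protein of that oxygen-evolving complex, had 1.36 and 1.85 CPM at outgrowth, 2.54, 2.26 and 2.57 CPM at initiation, and 56.2 and 98.5 CPM in control. PSBP kept the largest share of its control level among the 11, 2.61%. PSAH (LOC_Os05g48630), a photosystem I subunit, had 0.160 and 0.265 CPM at outgrowth, 0.613, 0 and 0.808 CPM at initiation, and 32.2 and 53.3 CPM in control. PC (LOC_Os06g01210), plastocyanin, which carries electrons to photosystem I, had 3.52 and 3.18 CPM at outgrowth, 2.80, 1.60 and 2.80 CPM at initiation, and 98.1 and 208.0 CPM in control. FD1 (LOC_Os08g01380), a ferredoxin, which accepts electrons from photosystem I, had 0.799 and 0.529 CPM at outgrowth, 1.23, 0.133 and 1.09 CPM at initiation, and 42.0 and 48.5 CPM in control. FD1 thus had the most even control pair of the 11. Summed over the 11 genes, the level was 10.2 and 10.3 CPM at outgrowth, 11.7, 10.3 and 11.7 CPM at initiation, and 729 and 1752 CPM in control, so that the primordium libraries lay close together while the control libraries did not.

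The photosynthesis list also holds genes that the rule did not take, and these were tested. Of the 35 listed loci, 32 had a read, 11 are among the 97, and 20 of the remaining 21 passed the filter of at least 1 CPM in at least 2 samples. Of these 20, 17 fell at outgrowth against control and 17 fell at initiation against control (edgeR's quasi-likelihood test, Benjamini-Hochberg adjusted p below 0.05), against 13.6% and 16.0% of all tested genes. Their median log2 difference was -5.73 at outgrowth and -6.47 at initiation. Both comparisons share the 2 control libraries and are not independent. Most of the 20, LHCA3 below among them, did not reach 1 CPM in 2 primordium samples and passed the filter only with their control level. Such genes could hardly be called other than lower, so these counts cannot be weighed against the shares over all genes. Of the 17 called lower, only RBCS4, LHCB3, PSAD, PSAE and PSAF reached 1 CPM in 2 primordium samples. The count at outgrowth was 9 of 19 tested without outgrowth replicate 2, and without either control library, when genes expressed only in the other one no longer pass the filter, 6 of 8 tested fell at each stage.

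Most of the genes not taken missed the floor of 30 CPM and not the fold: 20 of the 21 had under 30 CPM in at least 1 control library, and 12 of these, all with reads in both control libraries, were still at least 16 times lower in every primordium library. LHCB5 (LOC_Os11g13890), the antenna protein CP26, had no read at outgrowth, 0.175, 0 and 0.0950 CPM at initiation, and 17.002 and 57.529 CPM in control. LHCA3 (LOC_Os02g10390), of the photosystem I antenna, had reads in control alone, at 14.7 and 42.0 CPM. LHCB3 (LOC_Os07g37550), an antenna protein of photosystem II, passed the floor and missed the ratio at 15.7, with 3.04 and 1.23 CPM at outgrowth, 5.61, 5.86 and 5.04 CPM at initiation, and 92.0 and 159.0 CPM in control.

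The 3 exceptions among the 20 were PRK, GLO1 and CA1, named here after their values were seen. PRK (phosphoribulokinase, of the Calvin cycle) had 0.639 and 0.529 CPM at outgrowth, 0, 1.73 and 0 CPM at initiation, and 10.9 and 11.9 CPM in control, with edgeR adjusted p of 0.0681 at outgrowth and 0.0874 at initiation. GLO1 (glycolate oxidase, of photorespiration) had 0.479 and 0.265 CPM at outgrowth, 0.263, 0 and 0.238 CPM at initiation, and 2.754 and 1.1003 CPM in control, with edgeR adjusted p of 0.267 and 0.0976 for the same comparisons. The log2 difference of PRK from control was -4.22 at outgrowth and -3.61 at initiation, in the direction of the 17 called genes, and GLO1 was low in all libraries. CA1 (carbonic anhydrase) went the other way at outgrowth, with 17.9 and 26.99 CPM there, 0.438, 0.266 and 0.618 CPM at initiation, and 0.359 and 0.707 CPM in control. It rose by 5.33 ± 0.71 (log2, standard error) at outgrowth against control (edgeR adjusted p = 0.00180). The list of chlorophyll and plastid development, with no gene in the set, had 11 tested genes. Of these, 3 fell at outgrowth and 5 at initiation (edgeR adjusted p below 0.05), with median log2 differences from control of -0.69 and -1.25. PORA, PORB and GLK2 fell at both stages, CHLH and GLK1 at initiation alone, and none rose. PORA and GLK2 did not reach 1 CPM in 2 primordium samples. Both passed the filter with their control level and could hardly be called other than lower, so the counts of this list cannot be weighed against the shares over all genes. CHLI, not called, had 15.3 and 15.4 CPM at outgrowth, 23.9, 24.7 and 22.7 CPM at initiation, and 19.3 and 29.6 CPM in control.

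**Figure D3:**
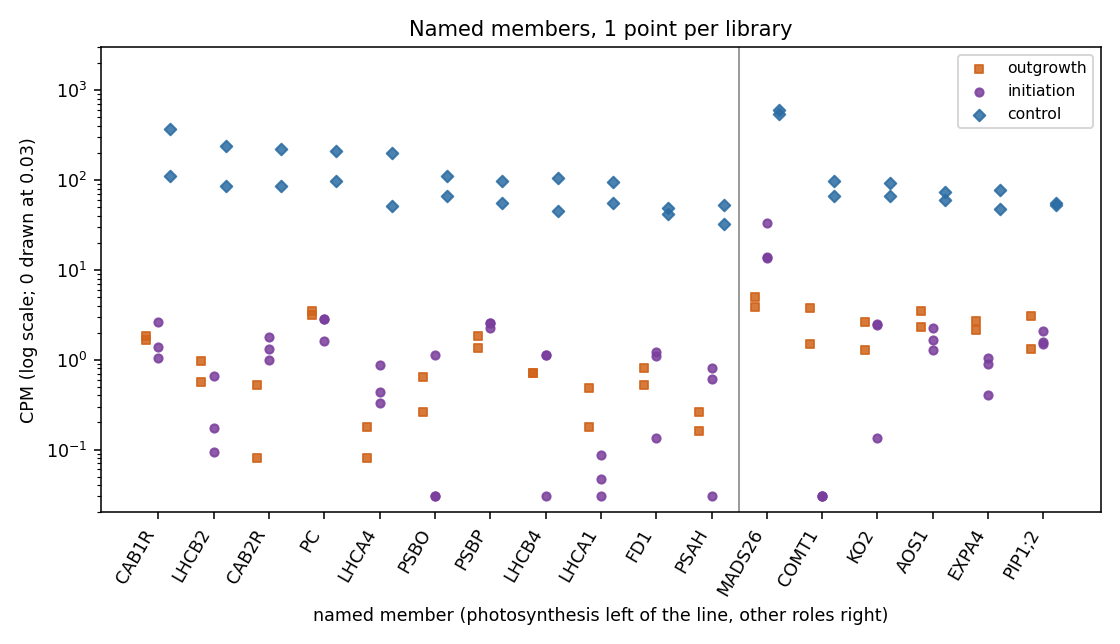
Each of the 17 named genes has 1 point per library on a log scale of CPM with 0 drawn at 0.03, for outgrowth (orange squares, 2 libraries), initiation (purple circles, 3 libraries) and control (blue diamonds, 2 libraries). The 11 photosynthesis genes stand left of the line, and the 2 control points of most of them are wide apart, while those of PIP1;2 and MADS26 nearly coincide.

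The 2 control libraries differed in their photosynthesis genes. All 11 named photosynthesis genes of the set were higher in control replicate 2, by 1.15 to 3.86 times. Their median ratio was 2.12, and 6 of them were higher by over 2 times. Among all 6573 genes with at least 30 CPM in both control libraries, 43.8% were higher in replicate 2 and the median ratio was 0.951. Of the 20 photosynthesis genes outside the set with reads in both control libraries, 15 were higher in replicate 2, with a median ratio of 2.09. Among the other 86 genes of the set, 80 of them without a name here, 34 were higher in replicate 2 and 52 in replicate 1. Their median ratio was 0.903 and their range 0.286 to 3.40. Only LOC_Os04g38410 (3.40) and LOC_Os07g38960 (2.06) of the 86 were over 2 times higher in replicate 2. The 86 are not on the photosynthesis list but may include photosynthesis genes. The genes nearly silent in primordia therefore did not move as 1 block between the control libraries. Whether the captured tissue differed between the control libraries was not tested.

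**Figure D4:**
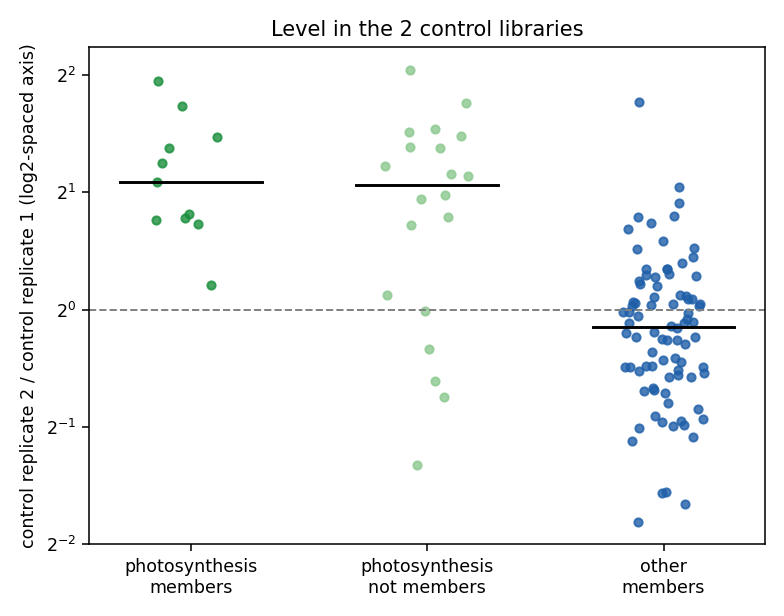
The ratio of control replicate 2 to control replicate 1 (log axis), with 1 point per gene and the median as a bar. Shown are 11 photosynthesis genes of the set, 20 listed ones outside it and the 86 set genes not on that list. The medians are 2.12, 2.09 and 0.903, and the dashed line marks equal levels.

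Outside photosynthesis, 6 genes of the set carry names. MADS26 (LOC_Os08g02070), a MADS-box transcription factor known in rice for its part in stress responses, had 3.83 and 4.94 CPM at outgrowth, 13.8, 33.1 and 13.5 CPM at initiation, and 598 and 544 CPM in control. Its mean level at initiation was the highest of the set, and initiation replicate 2 stood above the other 2. PIP1;2 (LOC_Os04g47220), a plasma membrane water channel, had 3.04 and 1.32 CPM at outgrowth, 1.49, 2.06 and 1.57 CPM at initiation, and 53.04 and 55.01 CPM in control. EXPA4 (LOC_Os05g39990), an expansin, a protein that loosens the wall of growing cells, had 2.72 and 2.12 CPM at outgrowth, 1.05, 0.400 and 0.903 CPM at initiation, and 47.9 and 77.3 CPM in control. The 2 outgrowth libraries of EXPA4 lay above all 3 initiation libraries, with an edgeR adjusted p of 0.126, so it was not called over all genes.

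COMT1 (LOC_Os08g06100), an O-methyltransferase of lignin synthesis, had 3.755 and 1.499 CPM at outgrowth, no read in the 3 initiation libraries, and 97.6 and 66.2 CPM in control. KO2 (LOC_Os06g37364), ent-kaurene oxidase, an early enzyme of gibberellin synthesis, had 1.28 and 2.65 CPM at outgrowth, 2.45, 0.133 and 2.52 CPM at initiation, and 93.2 and 66.3 CPM in control. AOS1 (LOC_Os03g55800), allene oxide synthase, which commits fatty acid peroxides to jasmonate synthesis, had 2.32 and 3.53 CPM at outgrowth, 1.67, 2.26 and 1.28 CPM at initiation, and 60.2 and 73.0 CPM in control. Outgrowth and initiation libraries did not overlap for COMT1 and, narrowly, for AOS1, which was not called (edgeR adjusted p = 0.520).

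Other genes of the same lists were tested against control, where 13.6% of all tested genes fell and 12.8% rose at outgrowth, and 16.0% fell and 14.4% rose at initiation. Among the water channels, 8 of 9 tested genes outside the set fell at outgrowth and 9 of 9 fell at initiation (edgeR adjusted p below 0.05), with median log2 differences from control of -3.89 and, with genes without a read at the bound that 3 counts allow, -4.55. PIP1;1 (LOC_Os02g44630), one of them, remained readily measured in primordia, with 102.7 and 112.7 CPM at outgrowth, 71.8, 58.3 and 75.1 CPM at initiation, and 1584 and 1704 CPM in control. The water channels PIP2;2, PIP2;4 and TIP2;1 passed the filter through their control level alone and could hardly be called other than lower. The counts of a list with such genes cannot be weighed against the shares over all genes. Of 12 tested genes of primary walls and expansins outside the set, 9 fell and 1 rose at outgrowth, and 9 fell and 2 rose at initiation. Of 12 tested genes of vascular tissue and secondary walls, 4 fell at outgrowth and 8 at initiation, and none rose. The gibberellin list was mixed, with 2 of 9 tested genes lower and 2 higher at outgrowth, and 4 lower and 2 higher at initiation. In the other 2 lists, 4 fell and 4 rose at outgrowth and 5 fell and 6 rose at initiation among 17 tested genes of other hormones, and 6 fell and 2 rose at outgrowth and 11 fell and 2 rose at initiation among 26 tested genes of flowering and the clock.

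The label of the control tissue was set against markers. The root cortex gene RCC3 had 1.04 and 1.94 CPM at outgrowth, 1.14, 0.400 and 0.855 CPM at initiation, and 0 and 3.85 CPM in control. CASP1, which marks the endodermis by its part in the Casparian strip, was without reads in all 5 primordium libraries and had 5.39 and 4.87 CPM in control. Both root markers were thus low in control, though CASP1 was read there alone. OSH1, a homeobox gene of the shoot meristem and stem, had 15.0 and 13.1 CPM at outgrowth, 72.9, 67.9 and 71.8 CPM at initiation, and 415 and 429 CPM in control. Summed over 14 listed shoot meristem genes with reads, 1 of them without a read in control and 4 without a read in each primordium stage, the level was 281.6 to 300.6 CPM at outgrowth, 409.9 to 435.5 CPM at initiation and 974.9 to 1134 CPM in control. Of its 7 tested genes, 5 fell at outgrowth and 4 at initiation, and none rose, while OSH71 had 130.8 and 123 CPM at outgrowth, 99.6, 110.5 and 101.3 CPM at initiation, and 96.985 and 126.9 CPM in control. FON1, lower at both stages, and OSH3, lower at outgrowth, did not reach 1 CPM in 2 primordium samples. They passed the filter with their control level and could hardly be called other than lower. The counts of this list therefore cannot be weighed against the shares over all genes. Summed over 12 listed genes of root primordia and root meristems, 1 of them without a read at outgrowth, it was 627.2 to 722.1 CPM at outgrowth, 1504 to 1830 CPM at initiation and 703.9 to 751.4 CPM in control. Of these 12, 4 rose and 4 fell at outgrowth, and 6 rose and 2 fell at initiation. CRL5 and WOX11, lower at both stages, did not reach 1 CPM in 2 primordium samples. Both passed the filter with their control level and could hardly be called other than lower. For this list, too, the counts cannot be weighed against the shares over all genes. WOX11 had 0.639 and 0 CPM at outgrowth, 0.175, 1.60 and 0.0950 CPM at initiation, and 11.974 and 24.167 CPM in control. CRL5, which fell at both stages, is a gene that the rule leaves out though it meets the thresholds. In control CRL5 had 150.4 and 156.4 CPM and SHR1 264.7 and 282.2 CPM, so the control sum rests in part on them. QHB had 1.32 and 14.97 CPM there. The 7 listed cell cycle genes summed to 1292 to 1668 CPM at outgrowth, 2451 to 2791 CPM at initiation and 693.7 to 962.4 CPM in control, with 2 higher than control at outgrowth and 7 at initiation, so transcripts of division genes were readily measured in the control tissue too. Listed leaf development genes, 14 with reads, summed to 1639 to 2007 CPM in control. In primordia they summed to 176.1 to 186.3 CPM at outgrowth and 394.2 to 506.7 CPM at initiation. Of 7 tested leaf development genes, 6 fell at outgrowth, and 4 fell and 1 rose at initiation. The 2 tested epidermis genes rose at both stages. A gene that passes the filter in 1 tissue alone can hardly be called in the other direction. The part of shoot meristem cells in the values of the 97 genes was not tested.

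Without a name, the gene with the highest mean control level was LOC_Os03g04220, with 2.48 and 1.76 CPM at outgrowth, no read at initiation, and 1274 and 601 CPM in control. LOC_Os04g11390 had 1.84 and 0 CPM at outgrowth, no read at initiation, and 656 and 536 CPM in control. Next by control level, LOC_Os01g22230 had 9.59 and 6.00 CPM at outgrowth, 2.89, 1.07 and 2.52 CPM at initiation, and 674 and 506 CPM in control. These 3 genes have no role given here, since neither the files nor the reference table annotate them.

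Further genes among the 12 with the highest control means kept more reads. LOC_Os09g28850 had 24.4 and 20.6 CPM at outgrowth, 7.97, 5.93 and 8.70 CPM at initiation, and 499.6 and 539 CPM in control. LOC_Os11g25160 had 10.9 and 3.35 CPM at outgrowth, 1.23, 0.333 and 1.62 CPM at initiation, and 419.9 and 352 CPM in control. LOC_Os11g03230 had 4.39 and 2.82 CPM at outgrowth, 8.15, 6.66 and 8.22 CPM at initiation, and 335 and 293 CPM in control. The stages of each of these genes did not overlap, and only LOC_Os09g28850 passed the test between stages. LOC_Os04g05070 had 2.32 and 1.59 CPM at outgrowth, 9.11, 7.53 and 9.03 CPM at initiation, and 304 and 259 CPM in control. LOC_Os06g01840 had 4.07 and 1.41 CPM at outgrowth, 2.54, 6.39 and 2.47 CPM at initiation, and 307 and 153 CPM in control. LOC_Os08g34700 had 7.35 and 5.29 CPM at outgrowth, 5.26, 5.40 and 4.61 CPM at initiation, and 274 and 167 CPM in control. The last 2 genes showed no separation of the stages, and control replicate 1 held the higher level of both.

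At the other end stand the genes with the widest gap between their lowest control and highest primordium level. LOC_Os03g07450 had 1 read over all 5 primordium libraries, in outgrowth replicate 1, and 52.3 and 54.7 CPM in control. LOC_Os04g53800 likewise had 1 read, in outgrowth replicate 2, and 32.2 and 55.9 CPM in control. LOC_Os05g37470 had 3 reads over the primordium libraries and 61.4 and 53.5 CPM in control. Such levels lie at or under the 3 counts taken as the floor, and more depth would be needed to rank these genes against each other. LOC_Os05g01120 had 4 primordium reads and 106.1 and 109.6 CPM in control. LOC_Os04g35210 had 7 primordium reads and 80.6 and 82.2 CPM in control, and LOC_Os01g74570 had 8 and 117.1 and 124.4 CPM. LOC_Os04g11400 had 7 primordium reads, all in outgrowth replicate 1, and 182.7 and 226 CPM in control.

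At the edge of the rule the values run on without a break. Just inside were MADS26 at 16.4 times, LOC_Os03g11970 at 16.5 (55.9 CPM in its lowest control library over 3.40 CPM in its highest primordium library) and LOC_Os02g51280 at 16.5 (78.1 over 4.73 CPM). Just outside were LOC_Os12g05050 at 15.9 (245 over 15.4 CPM), MT2b (LOC_Os05g02070) at 15.8 and LOC_Os01g52680 at 15.8 (37.8 over 2.40 CPM). MT2b, a metallothionein, a small cysteine-rich protein that binds metal ions, had 14448 CPM in its lowest control library and 913.6 CPM in its highest primordium library, so a gene just outside the rule is far from silent.

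The set is spread over all 12 chromosomes, with 13 genes on chromosome 3, 12 on chromosome 1 and 1 on chromosome 12. Neighbours within 10 measured loci of each other formed 7 runs with 16 genes, the longest of 3. One run on chromosome 3 holds LOC_Os03g04220, LOC_Os03g04240 and LOC_Os03g04250, whose control replicate 2 was 0.472 to 0.532 times replicate 1. On chromosome 10, LOC_Os10g07200 and LOC_Os10g07210 had 0.340 and 0.286 times. The run on chromosome 9 of LOC_Os09g17650, LOC_Os09g17660 and CAB1R was not alike, with ratios of 0.459, 0.338 and 3.34, CAB1R going with the photosynthesis genes. The other runs were LOC_Os04g11390 with LOC_Os04g11400, LOC_Os07g06570 with LOC_Os07g06600, LOC_Os08g43350 with LOC_Os08g43390, and LOC_Os09g27590 with LOC_Os09g27650. Of the 16 genes in runs, 10 had no read at initiation, and of the 81 genes outside runs, 9 had none. Adjacent genes may be near copies that share reads, since how such reads were counted is not given, so values within a run are uncertain and not separate evidence.

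The rule capped outgrowth and initiation alike but did not use the difference between them. Residual levels differed between the stages for 10 of the 97 genes in edgeR's quasi-likelihood test at an adjusted p below 0.05, with 38 at an unadjusted p below 0.05. Outgrowth was higher for 8 of the 97, where 1.23% of 18836 genes were called higher, and lower for 2, where 1.84% were called lower. All 97 genes passed the filter of at least 1 CPM in at least 2 samples through their control level, and 44 of them, 7 of the 10 called, reached 1 CPM in at least 2 primordium samples. The other 3 called genes, LOC_Os03g04240, LOC_Os08g43350 and LOC_Os02g47810, all counted as higher, entered the test by their control level, so the 8 cannot be weighed against the share over all genes. The median log2 difference was 0.62, or 0.56 with genes without reads in 1 stage at their bound, and 0.03 over all tested genes. In 33 of the 97 genes both outgrowth libraries lay above all 3 initiation libraries, which held for 32.2% of all tested genes, and in 18 they lay below, which held for 24.0%. These shares are close to or under those of all genes.

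COMT1 was at least 27.4 times higher at outgrowth, where its mean was 2.63 ± 1.59 CPM (SD, n = 2), against no read at initiation (edgeR adjusted p = 0.0203). LOC_Os03g04220 was at least 22.1 times higher, at 2.12 ± 0.50 CPM against no read (edgeR adjusted p = 0.0308), and its neighbour LOC_Os03g04240 at least 14.2 times, at 1.36 ± 0.68 CPM against no read (edgeR adjusted p = 0.0462). LOC_Os08g43350, at 0.836 ± 0.060 CPM, and LOC_Os02g47810, at 0.748 ± 0.185 CPM, were at least 8.71 and 7.79 times higher (edgeR adjusted p = 0.0323 and 0.0316). With either control library left out, LOC_Os08g43350 and LOC_Os02g47810 no longer passed the filter and were not tested. With limma on log2(CPM + 1) none of these 5 genes was called, at adjusted p of 0.0781 for COMT1, 0.0761 for LOC_Os03g04220, 0.200 for LOC_Os03g04240, 0.348 for LOC_Os08g43350 and 0.375 for LOC_Os02g47810. These 5 bounds set the outgrowth mean against 3 counts over the initiation samples, 0.0960 CPM, and cover counting error only.

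The other 5 called genes had reads in both stages and were also called with limma. LOC_Os01g55000 had 8.31 and 7.14 CPM at outgrowth, 0.964, 0.133 and 0.950 CPM at initiation, and 182 and 212 CPM in control, and rose by 3.70 ± 0.53 (log2, standard error) at outgrowth (edgeR adjusted p = 0.0168). LOC_Os01g22230 rose by 2.01 ± 0.41 (edgeR adjusted p = 0.0468) and LOC_Os09g28850 by 1.60 ± 0.22 (edgeR adjusted p = 0.0153). In the opposite direction, MADS26 averaged 4.39 ± 0.78 CPM at outgrowth and 23.4 ± 13.8 CPM at initiation (SD, n = 2 each), and fell by 2.47 ± 0.43 on the log2 scale (edgeR adjusted p = 0.0279). LOC_Os04g05070 fell by 2.12 ± 0.26 on the log2 scale (edgeR adjusted p = 0.0111). All 10 genes had libraries of the 2 stages apart, and none of the 11 photosynthesis genes was among them.

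**Figure D5:**
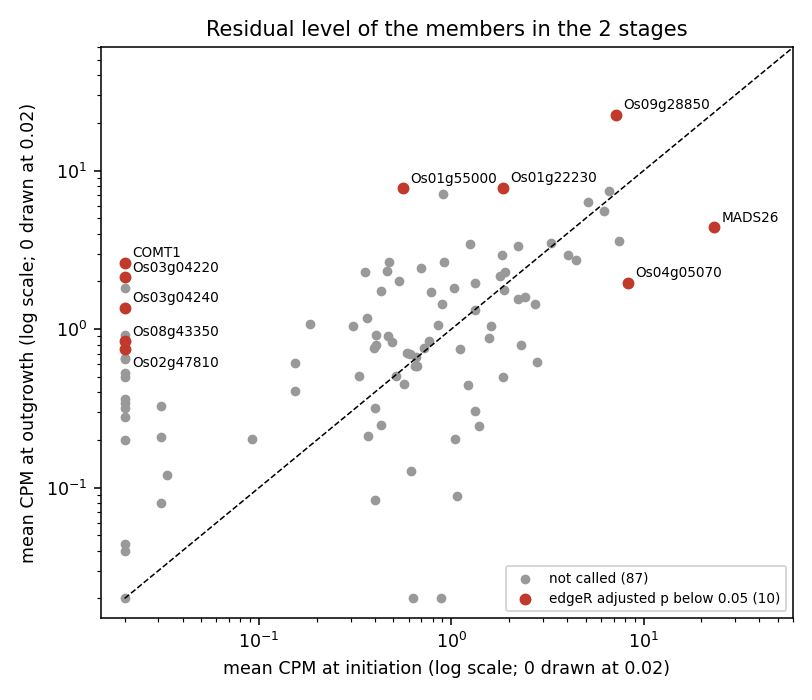
Mean CPM of each of the 97 genes at initiation (horizontal) and at outgrowth (vertical), on log scales with 0 drawn at 0.02, with n = 2 samples per stage and the dashed line at equal levels. The 10 genes called between the stages are red and labelled, 5 of them with no read at initiation and 2, MADS26 and LOC_Os04g05070 (Os04g05070), below the line.

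No call between the stages held without the abundance trend of the dispersion (33 of the 97 genes at an unadjusted p below 0.05), and none held without outgrowth replicate 1, outgrowth replicate 2 or initiation replicate 2, when 0 of the 97 genes passed (25, 38 and 33 at an unadjusted p below 0.05). Without initiation replicate 2 the log2 difference of MADS26 was -1.66 and that of LOC_Os01g55000 was 2.93. Values that move with the stages stand beside these calls: the outgrowth tables list more genes with 1 to 3 reads, 10.46% and 10.41% of listed genes, against 5.63% to 6.98% in the initiation tables, and the outgrowth tables have another layout than the rest, so stage and table making cannot be told apart. The outgrowth libraries also differed in the set itself: 74 of the 97 genes were higher in outgrowth replicate 1 and 20 in replicate 2, where 54.9% of all tested genes were higher in replicate 1. Among the 18 genes with outgrowth reads and none at initiation, 16 were higher in outgrowth replicate 1. The part of these differences in the calls was not tested.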

How the data were processed

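Per the labels' protocols, RNA from microdissected tissue was isolated with the PicoPure kit and amplified with a SMARTer low-input kit. Per the submitters' processing notes STAR was used. No version, genome build, counting program or strand setting is given in the sources used here. The 7 deposited tables head their values FPKM, but these are whole numbers with different totals and were read as counts per gene made by the authors. Genes that a table does not list were set to 0. Tests for FPKM were therefore not used.

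CPM used the table totals. Counts were tested with edgeR 4.0.16 in R 4.3.3 (quasi-likelihood, TMM scaling, at least 1 CPM in at least 2 samples, 18836 genes, two-sided p adjusted by Benjamini-Hochberg over all genes). All 6 samples entered 1 fit with 3 residual degrees of freedom. Initiation replicates 1 and 3 were averaged and rounded, because they differed by less than counting noise. DESeq2 1.42.0, limma 3.58.1 on log2(CPM + 1) and the other alternatives are in the closing section.

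The 97 genes and the lists were chosen with earlier results of these data known. Named are all genes of the set found among the 430 listed loci and the 12 with the highest control mean. Also given are the 8 with the widest gap, those called between stages, 3 on each side of the ratio and runs of neighbours. Intervals and floors of 3 counts cover counting error only.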

Additional observations from a re-analysis of the deposited data

Results flagged for a closer look

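The 10 genes whose residual level differed between the primordium stages by the test of that difference are listed for a closer look. With reads in both stages, the log2 difference of outgrowth from initiation was 3.70 for LOC_Os01g55000, 2.01 for LOC_Os01g22230, 1.60 for LOC_Os09g28850, -2.12 for LOC_Os04g05070 and -2.47 for MADS26. With no read at initiation, COMT1 was at least 27.4 times, LOC_Os03g04220 at least 22.1 times, LOC_Os03g04240 at least 14.2 times, LOC_Os08g43350 at least 8.7 times and LOC_Os02g47810 at least 7.8 times higher at outgrowth. In each, both outgrowth libraries lay on 1 side of all 3 initiation libraries.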

How the results depend on the processing

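The number of genes that meet the rule was 168 at a ratio of 8 and 62 at a ratio of 32, 197 at a floor of 10 CPM and 26 at 100 CPM, 82 with TMM-scaled totals, 88 with DESeq2 size factors, and 97 to 161 with 1 library left out (161 without control replicate 2). Calls between the stages among the 97 genes, 10 as reported, were 30 with DESeq2, 34 without the low filter, 23 with initiation replicates 1 and 3 separate, 5 with limma and 0 without the abundance trend (33 at an unadjusted p below 0.05). With 1 library left out they were 0 to 16, the lone sample of a stage being assumed to vary like the other groups. Over all genes the stage calls, 578 as reported, were 1796 with DESeq2, 1554 without the low filter, 1624 with replicates separate, 1027 with limma, 0 without the trend (2987 unadjusted) and 0 to 1819 with 1 library left out. Leaving out 1 library gave 1548 to 7590 calls at outgrowth against control (4981 as reported) and 3026 to 7969 at initiation against control (5721). The 10 called genes kept their direction in every setting in which they were tested, and all 10 were called with DESeq2, without the filter, with replicates separate and with the replicate block. The cause of the changed counts was not tested. Same-numbered replicates did not deviate together (r of -0.027 to 0.022 across genes), which gives no sign of pairing but cannot exclude it. With a replicate block, 16 of the 97 and 630 of all genes were called. At 11337620 reads, 3 counts are 0.265 CPM, which limits what can be said of the lowest levels.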
